A study of Homo sapiens with 6 samples.

Results

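HMGCS1, IDI1, FDFT1, SQLE, LSS, DHCR7, SREBF2 and INSIG1 are 8 genes of the cholesterol synthesis pathway and its control. They were read in RNA-seq libraries of 2 pancreatic ductal adenocarcinoma (PDAC) cell lines in which the glycolytic enzyme gene ALDOA had been targeted. The 8 genes were chosen by symbol, as targets of the transcription factor SREBP2 in sterol synthesis and LDL uptake, from the 41766 genes of the deposited expression table. The choice was made with the changes of these genes in the 90 line known, so those changes are given as a description, with no test. All 8 passed the filter on low values (an average over the libraries of 1 FPKM or more), as did 12591 genes in all. FPKM is fragments scaled to gene length and to library depth, so levels of different genes can be set roughly side by side on it. It is not corrected for the share of G and C in a transcript, and the gene lengths used were not found. None of the 8 genes is itself an uptake receptor; 6 encode enzymes and 2 encode regulators.

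The groups were PANC-1 siALDOA (2 libraries, siALDOA 1 and siALDOA 2), PANC-1 NC (1 library), 90 siALDOA (2 libraries, likewise numbered) and 90 NC (1 library). The labels write the treatment of the 90 line as siAldoa, and all libraries came from poly(A)-selected RNA. PANC-1 is an established human PDAC line. The prefix si was taken to mean small interfering RNA. The sources used here give neither the meaning of 90 and of NC nor whether siALDOA 1 and 2 were made with distinct siRNAs or repeat the same one. Separate cultures are not mentioned in any label, and the p-values below therefore reflect the variation among these libraries alone, which could be technical. With 1 NC library per line, each change from NC within a line rests on that library.

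Cells build cholesterol from acetyl-CoA through the mevalonate pathway, whose isoprenoid units are joined to squalene and then closed into the sterol ring system. The pathway is controlled by SREBP2, the product of SREBF2, which is held in the endoplasmic reticulum by SCAP and INSIG proteins while sterols are plentiful. When sterols run low, SREBP2 is carried to the Golgi, cut, and moves to the nucleus, where it binds sterol regulatory elements of the synthesis genes and of the receptor that takes up LDL. INSIG1 is itself a target, which closes a feedback loop. Acetyl-CoA for the pathway derives in part from glycolysis, the route to which ALDOA belongs.

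The windows of 250 bases before the annotated start were searched for the letters of promoter elements, among them the sterol regulatory element. RefSeq windows (build GRCh38.p14) matched 6 of the 8 genes: HMGCS1, IDI1, INSIG1, LSS, DHCR7 and SREBF2. SQLE and FDFT1 are named only. HMGCS1 and DHCR7 had 2 windows each and IDI1 had 3, one for each annotated start, and 1 window of each of these genes held no CCAAT box. The 4 windows below were chosen to set the only member window that held a match to the sterol regulatory element searched, that of SREBF2, beside those of early, isomerase and late pathway enzymes, each of these shown by a window with at least 2 CCAAT boxes. Each is written 5′ to 3′ along the gene's strand, with matches to the sterol regulatory element and to the CCAAT box in capitals.
SREBF2, chr22:41832855-41833104, plus strand: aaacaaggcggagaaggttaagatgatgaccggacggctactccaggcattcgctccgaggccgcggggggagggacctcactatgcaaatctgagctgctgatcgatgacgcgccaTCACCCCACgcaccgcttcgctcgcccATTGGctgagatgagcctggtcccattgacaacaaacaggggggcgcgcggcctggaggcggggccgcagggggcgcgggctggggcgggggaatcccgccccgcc
HMGCS1, chr5:43313413-43313662, minus strand: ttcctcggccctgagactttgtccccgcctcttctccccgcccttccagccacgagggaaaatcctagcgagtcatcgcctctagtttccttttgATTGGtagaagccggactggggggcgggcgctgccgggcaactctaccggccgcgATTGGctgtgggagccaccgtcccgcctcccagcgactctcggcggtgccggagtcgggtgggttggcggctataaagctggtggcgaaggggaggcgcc
IDI1, chr10:1048887-1049136, minus strand: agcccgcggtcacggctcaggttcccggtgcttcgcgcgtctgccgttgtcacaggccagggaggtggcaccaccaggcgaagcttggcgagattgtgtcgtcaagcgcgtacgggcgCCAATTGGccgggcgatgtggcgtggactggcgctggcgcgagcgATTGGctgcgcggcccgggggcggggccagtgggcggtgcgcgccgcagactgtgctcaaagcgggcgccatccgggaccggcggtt
DHCR7, chr11:71448394-71448643, minus strand: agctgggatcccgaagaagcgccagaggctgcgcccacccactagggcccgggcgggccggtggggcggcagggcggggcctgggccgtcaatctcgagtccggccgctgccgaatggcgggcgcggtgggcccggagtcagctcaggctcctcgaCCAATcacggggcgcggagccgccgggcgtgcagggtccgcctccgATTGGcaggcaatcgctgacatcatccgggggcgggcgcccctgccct
The sterol regulatory element was searched as TCACNCCAC and the CCAAT box as CCAAT, both on both strands. In SREBF2 the sterol regulatory element began 133 bases and the CCAAT box 106 bases before the start, with no overlap between them. In the windows printed, HMGCS1 held CCAAT boxes at 155 and 100 bases, IDI1 at 132, 129 and 87 bases (the first pair overlapping) and DHCR7 at 94 and 48 bases. Over all 34796 windows of this length, 0.882% held the sterol regulatory element, 32.01% held a CCAAT box and 42.6% held a GC box (GGGCGG, not in capitals above). A match is a description of letters, not a bound site, and a window with no match says only that these letters are not in it.

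ALDOA, read first as a check of the labels, was below NC in each of the 4 siALDOA libraries. It stood at 55.3% and 51.0% of NC in PANC-1 siALDOA 1 and 2, and at 36.1% and 43.8% of NC in 90 siALDOA 1 and 2. Depth recovered from the steps of the low values was 17.7 to 21.8 M fragments per library (M for mega), and 11132 to 12686 genes reached 1 FPKM. All 6 epithelial and ductal markers reached 1 FPKM in every library. In the limma fit of PANC-1 against 90, the keratin KRT7 (log2 difference -6.96), the cadherin CDH1 (-4.00), EPCAM (-3.03) and the keratin KRT19 (-1.43) were called lower in PANC-1 than in 90, and the keratins KRT8 (0.46) and KRT18 (0.35) were not called. Of 12 markers of leukocytes, endothelium, fibroblasts, acinar, islet and neural cells, CD68 and MBP reached 1 FPKM in every library and 4 to 7 were at 0. Their summed level was 159 to 186 FPKM in PANC-1 libraries and 44.9 to 58.6 FPKM in 90 libraries. CD68 made up most of it, with 124 to 162 FPKM in PANC-1 and 31.3 to 51.2 FPKM in 90. No marker of this list but CD68 and MBP reached 1 FPKM in any library. Libraries differed in a trend with transcript GC content (the share of G and C in the longest GENCODE v29 transcript). Among the genes with the lowest GC content, PANC-1 siALDOA 1 stood below NC, and PANC-1 siALDOA 2 and 90 siALDOA 1 stood above it. Each result on the 8 genes is therefore given with its GC content and, where stated, after a correction of that trend.

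HMGCS1 encodes the cytosolic HMG-CoA synthase, which makes the substrate of mevalonate synthesis, and lies on the minus strand at chr5:43289395-43313512 (GENCODE v29, GRCh38, as for the genes below). It had the lowest level of the 8 genes, at 3.19 FPKM in PANC-1 siALDOA 1 and 11.4 FPKM in PANC-1 siALDOA 2, against 6.45 FPKM in PANC-1 NC. In the 90 line it had 19.2 FPKM in siALDOA 1 and 5.15 FPKM in siALDOA 2, against 5.18 FPKM in NC. The siALDOA libraries thus lay on both sides of NC in PANC-1, and in 90 only siALDOA 1 stood clear of NC. HMGCS1 in siALDOA 1 was at 0.281 times siALDOA 2 in PANC-1 and at 3.73 times siALDOA 2 in 90. Its lowest value rests on about 240 fragments, the fewest of any of the 8 genes.

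IDI1 encodes isopentenyl-diphosphate isomerase, which interconverts the isoprenoid building blocks (chr10:1039152-1049170, minus strand). It had 8.12 and 29.7 FPKM in PANC-1 siALDOA 1 and 2, against 26.2 FPKM in PANC-1 NC. In the 90 line it had 59.8 and 26.1 FPKM in siALDOA 1 and 2, against 16.4 FPKM in NC. Both 90 siALDOA libraries were above NC, while in PANC-1 siALDOA 1 was far below NC and siALDOA 2 was near it. IDI1 had the widest range of the 8 genes as a ratio of its highest to its lowest level.

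FDFT1 encodes squalene synthase, the enzyme of the first step committed to sterols, and lies on chromosome 8. It had 52.4 and 43.8 FPKM in PANC-1 siALDOA 1 and 2 and 52.4 FPKM in PANC-1 NC. In the 90 line it had 166.5 and 223.9 FPKM in siALDOA 1 and 2 and 179.5 FPKM in NC. All 3 PANC-1 values were below all 3 values of 90, whatever the treatment, and it was the most abundant of the 8 genes in 90.

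SQLE encodes squalene epoxidase, which adds the oxygen needed for ring closure, and also lies on chromosome 8. It had 27.1 and 37.9 FPKM in PANC-1 siALDOA 1 and 2, against 34.9 FPKM in PANC-1 NC. In the 90 line it had 50.6 and 34.9 FPKM in siALDOA 1 and 2, against 43.8 FPKM in NC. In each line 1 siALDOA library was above NC and the other below it.

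LSS encodes lanosterol synthase, which closes the sterol rings (chr21:46188141-46228824, minus strand). It had 34.6 and 27.3 FPKM in PANC-1 siALDOA 1 and 2, against 29.8 FPKM in PANC-1 NC, and 23.5 and 35.03 FPKM in 90 siALDOA 1 and 2, against 24.4 FPKM in 90 NC. The highest values were those of 90 siALDOA 2 and PANC-1 siALDOA 1, and the lines overlapped. DHCR7 encodes the reductase of the final step of one route to cholesterol (chr11:71428193-71452868, minus strand). It had 145.5 and 110.5 FPKM in PANC-1 siALDOA 1 and 2, against 124.6 FPKM in PANC-1 NC, and 100.6 and 144.1 FPKM in 90 siALDOA 1 and 2, against 114.2 FPKM in 90 NC. It shared with LSS the 2 highest libraries, and its lines overlapped too.

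SREBF2 (chr22:41833079-41907308, plus strand) and INSIG1 (chr7:155297776-155310235, plus strand) are the regulators. SREBF2 had 30.7 and 22.6 FPKM in PANC-1 siALDOA 1 and 2, against 23.3 FPKM in PANC-1 NC. In the 90 line it had 64.9 and 86.7 FPKM in siALDOA 1 and 2, against 74.3 FPKM in NC. As with FDFT1, the PANC-1 values were all below the 90 values. INSIG1, the retention factor that is also an SREBP2 target, had 20.1 and 27.1 FPKM in PANC-1 siALDOA 1 and 2, against 22.5 FPKM in PANC-1 NC, and 30.8 and 25.8 FPKM in 90 siALDOA 1 and 2, against 21.4 FPKM in 90 NC. It had the narrowest range in absolute level, and both 90 siALDOA libraries were above NC.

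**Figure D1:**
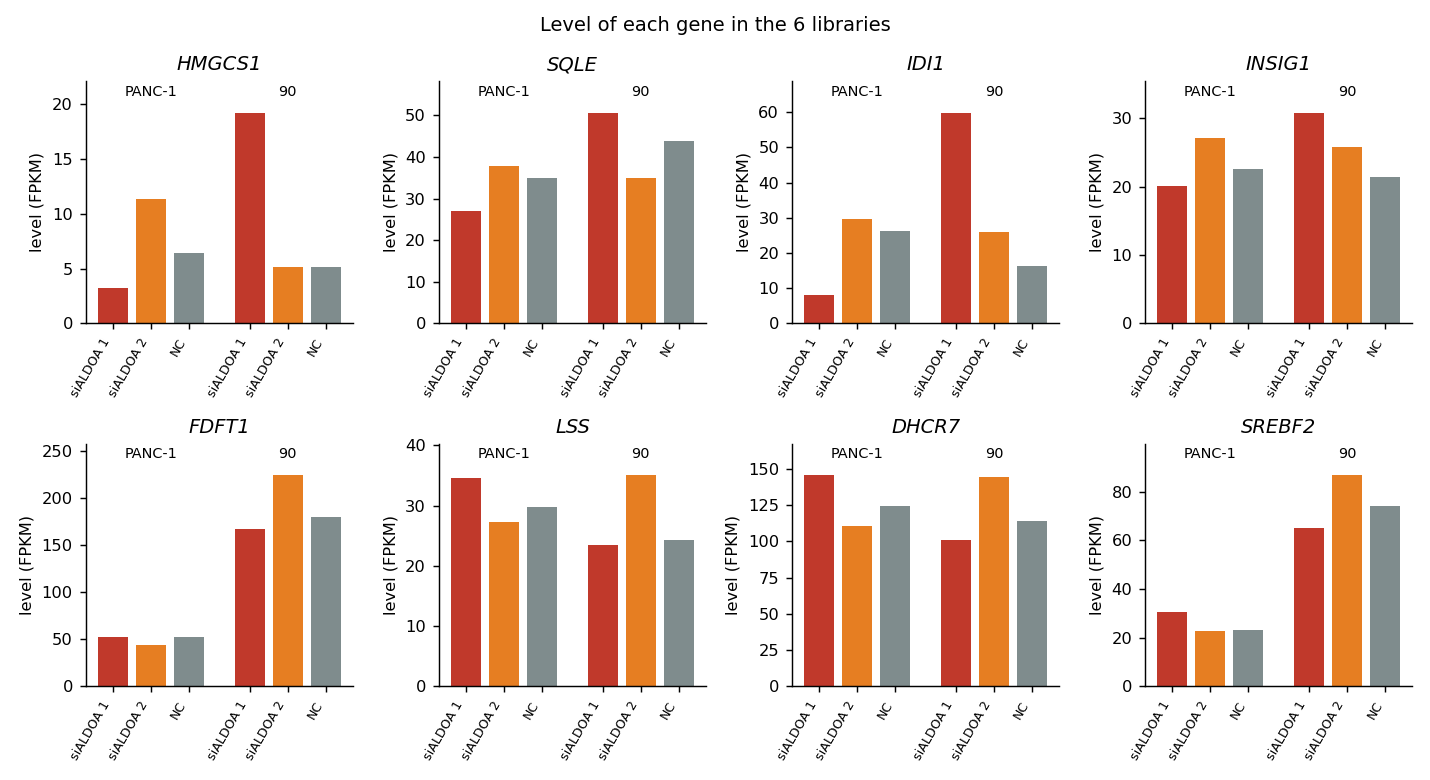
Level of each gene in FPKM (bars, from 0) in each of the 6 libraries, with PANC-1 on the left and 90 on the right of each panel and the NC library grey. FDFT1 and SREBF2 are lower in all 3 PANC-1 libraries than in all 3 of 90. HMGCS1, IDI1, SQLE and INSIG1 are highest in 90 siALDOA 1 and lowest in PANC-1 siALDOA 1.

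The first comparison asked whether siALDOA changed these genes in PANC-1, and none of the 8 passed the test. In a limma fit of log2(FPKM + 1) over all 12591 genes, with the Benjamini-Hochberg adjustment, 0 genes were called at an adjusted p under 0.05 (0% of those tested) and 21 had an unadjusted p under 0.05. With no change in any gene, a share of about 0.05 would pass unadjusted, so 21 genes are few and the test was strict. Its spread comes from the gaps between siALDOA 1 and 2, since NC has 1 library per line. ALDOA itself, at 55.3% and 51.0% of NC in PANC-1 siALDOA 1 and 2, was not called either. Without the filter on low values 49 genes were called. The log2 difference of siALDOA from NC was -0.70 for IDI1 (SE 0.933, 95% interval -3.27 to 1.87) and -0.05 for HMGCS1 (SE 1.04, -2.90 to 2.80). It was narrower for the other 6, between -0.13 for FDFT1 (-0.94 to 0.68) and 0.17 for SREBF2 (-0.75 to 1.09), and the adjusted p was 1 for each of the 8 genes. The intervals of HMGCS1 and IDI1 thus include changes of over 1 log2 unit in either direction. Those of SQLE (-1.15 to 0.91), LSS (-0.94 to 1.03) and SREBF2 include such a change in 1 direction. These data do not show that siALDOA left any of the 8 genes as it was. The median over the 8 genes was -0.08 in siALDOA 1 and 0.04 in siALDOA 2, against 0.02 and 0.03 over all tested genes, and its sign over both libraries turned with the scaling. In bulk RNA, fewer cells with a transcript and less transcript per cell cannot be told apart.

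**Figure D2:**
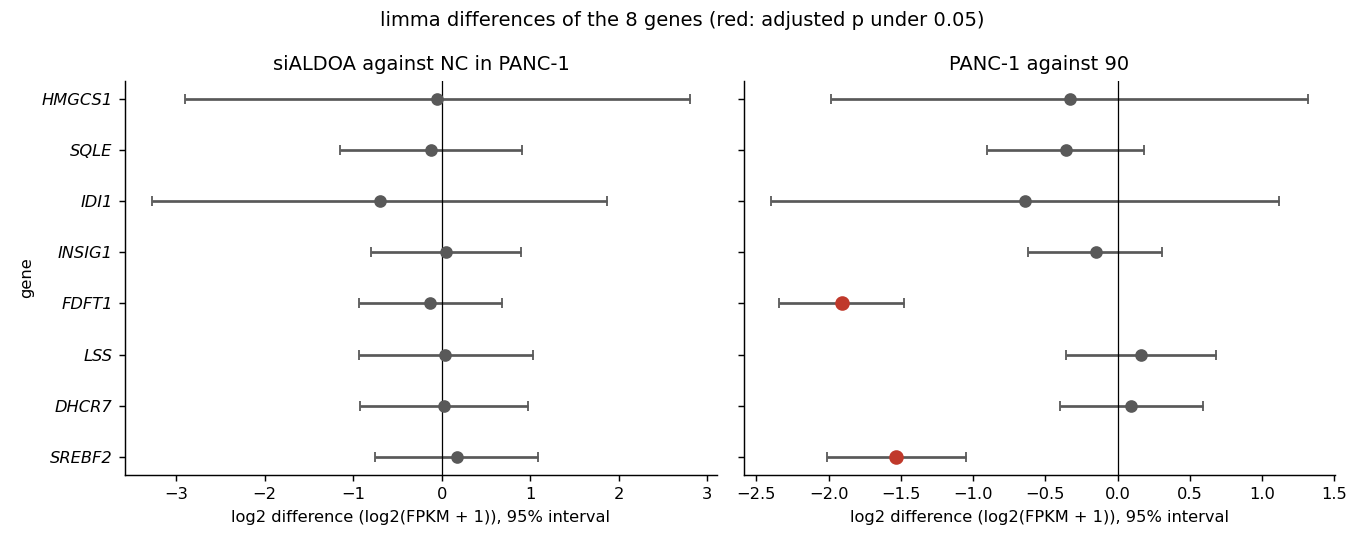
Log2 differences (points) from limma with 95% intervals (bars) for each gene, for siALDOA against NC in PANC-1 on the left and for PANC-1 against 90 on the right. Every interval on the left spans 0, and FDFT1 and SREBF2, in red, are the genes with an adjusted p under 0.05 on the right.

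In the 90 line the same contrast was described without a test. IDI1 and INSIG1 were above NC in both siALDOA libraries, by 1.80 and 0.64 for IDI1 and by 0.51 and 0.26 for INSIG1 on the log2 scale; of all tested genes 20.6% were above NC in both. HMGCS1 was 1.71 higher in siALDOA 1 and 0.01 lower in siALDOA 2, the widest gap between the libraries. The other 5 genes lay on opposite sides of NC in the pair of libraries, by at most 0.51 in size. Of the 8 genes 6 were above NC in siALDOA 2, beside 50.3% of all tested genes. The median over the 8 genes was 0.08 in siALDOA 1 and 0.29 in siALDOA 2, against -0.02 and 0.00 over all tested genes.

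**Figure D3:**
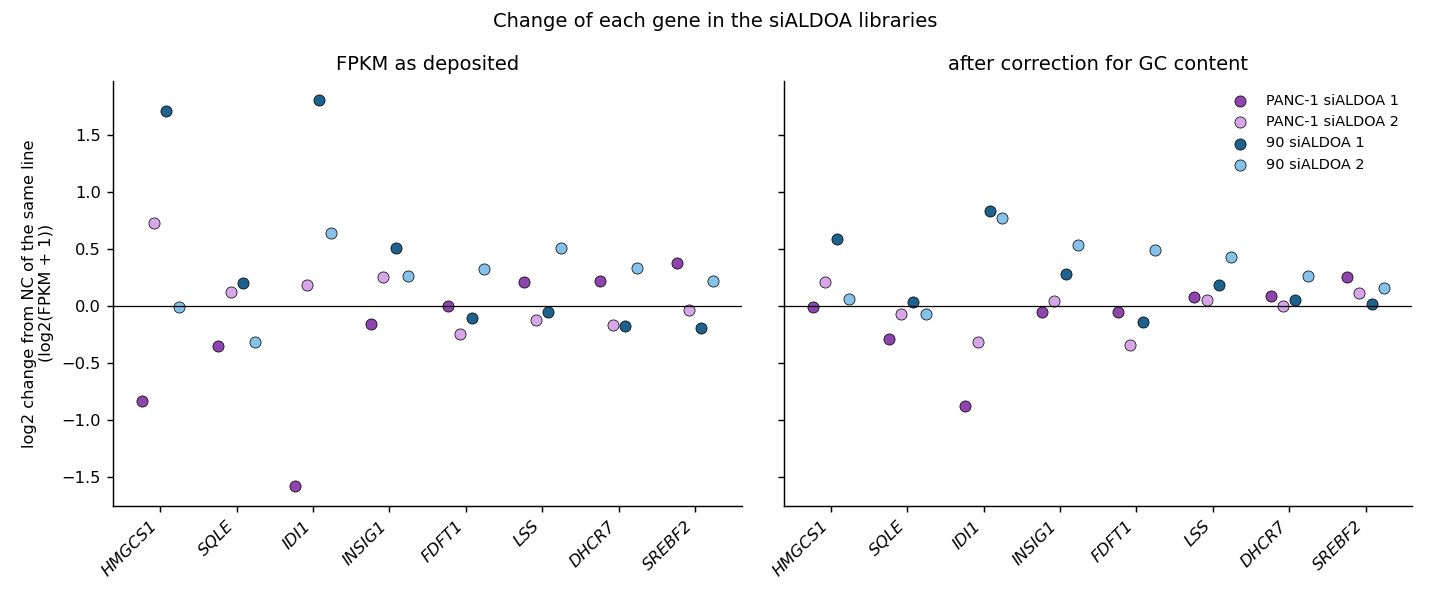
Log2 change from the NC library of the same line, on the log2(FPKM + 1) scale, for each gene in the 4 siALDOA libraries, as deposited on the left and after the correction for GC content on the right. As deposited, IDI1 runs between -1.58 and 1.80; after the correction it runs between -0.88 and 0.83, below 0 in both PANC-1 libraries and above 0 in both 90 libraries.

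By their side of NC the 8 genes fell into 2 patterns that ran against each other in PANC-1 siALDOA 2 and 90 siALDOA 1. They were described after the values were seen. HMGCS1, IDI1, SQLE and INSIG1 were below NC in PANC-1 siALDOA 1 (-0.16 for INSIG1 to -1.58 for IDI1), above NC in PANC-1 siALDOA 2 (by 0.12 to 0.73) and above NC in 90 siALDOA 1 (by 0.20 to 1.80). Of all tested genes, 28.4% followed that pattern. FDFT1, LSS, DHCR7 and SREBF2 were below NC in PANC-1 siALDOA 2 (-0.04 to -0.25), below NC in 90 siALDOA 1 (-0.05 to -0.19) and above NC in 90 siALDOA 2 (by 0.22 to 0.51), as were 24.4% of all tested genes. In 90 siALDOA 2 the patterns did not oppose, since IDI1 (0.64) and INSIG1 (0.26) were above NC too. The division followed neither the order of the pathway nor the divide between enzymes and regulators. SREBF2 and INSIG1 stood on different sides, as did the neighbouring steps of FDFT1 and SQLE. All 8 genes kept their pattern under median ratio scaling, in which 26.9% of all tested genes followed the first pattern and 31.0% the second. Under quantile normalization FDFT1 and DHCR7 left the second pattern, and on the TPM scale DHCR7 alone stayed in it, while the first pattern kept its 4 genes, beside 21.2% of all genes under quantile normalization and 30.4% on the TPM scale. FDFT1, for example, differed from NC in 90 siALDOA 1 by -0.11 as deposited and by 0.09 after quantile normalization, which set the median of all tested genes at 0.12 in PANC-1 siALDOA 1 and -0.21 in 90 siALDOA 1, against 0.02 and -0.02 as deposited. On the TPM scale that median was 0.16 in PANC-1 siALDOA 2. After the GC correction HMGCS1 and INSIG1 held the first pattern, beside 15.3% of all tested genes, and FDFT1 the second, beside 19.7%, so the members' counts were near the background.

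GC content divided the genes in the same way. Transcript GC content was 40.2% for HMGCS1, 41.1% for IDI1, 46.0% for INSIG1 and 46.5% for SQLE, against 48.6% for FDFT1, 57.1% for SREBF2 and 58.3% for both LSS and DHCR7. All tested genes with a known GC content (90.6%) were divided into eighths by it. In the eighth that holds HMGCS1 and IDI1 (39.6% to 42.7%), the median log2 change was -0.53 and 0.47 in PANC-1 siALDOA 1 and 2, and 0.80 and -0.14 in 90 siALDOA 1 and 2. In the eighth that holds LSS and DHCR7 (57.3% to 61.2%), the medians were 0.13 and -0.17 in PANC-1, and -0.24 and 0.09 in 90. HMGCS1, LSS, DHCR7 and SREBF2 lay on the same side of NC as the median of their eighth in all 4 libraries, and IDI1 in 3 of 4, the exception being 90 siALDOA 2. SQLE, INSIG1 and FDFT1 fall in an eighth (46.0% to 49.6%) whose medians were -0.16 to 0.09, and lay on either side of them. The part of GC content in the changes of the 8 genes was not tested.

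**Figure D4:**
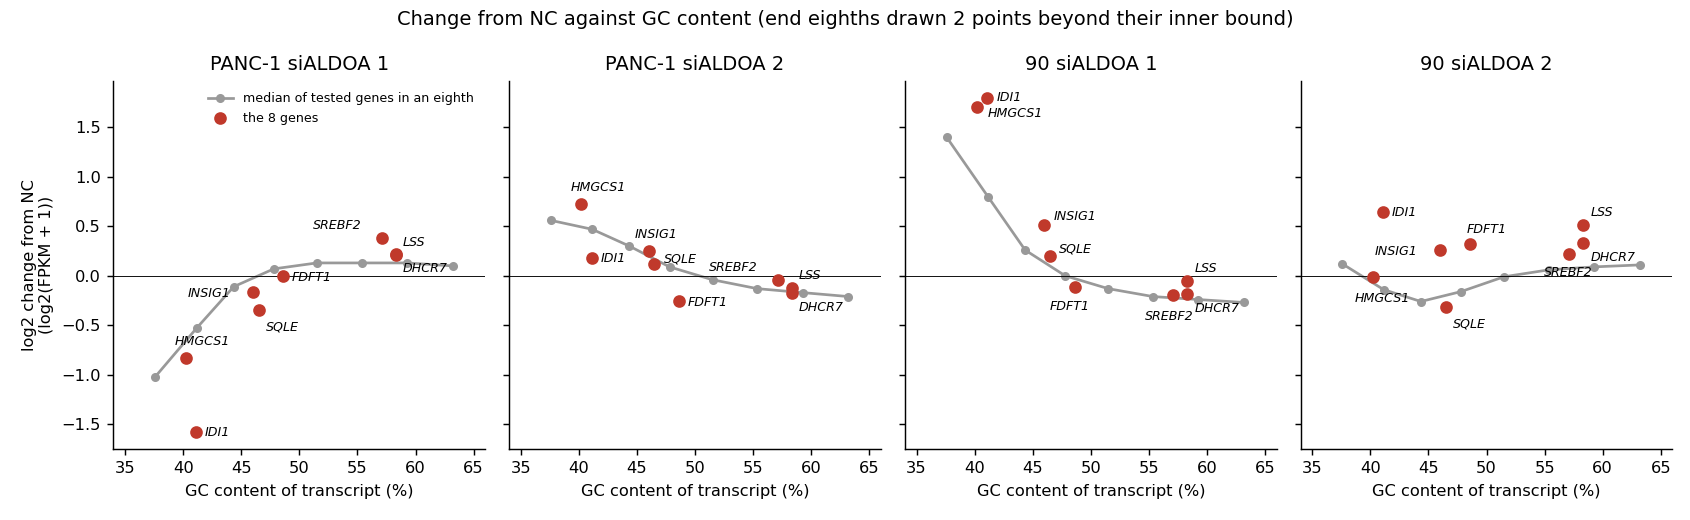
Log2 change from NC against transcript GC content in percent, a panel for each siALDOA library, with the 8 genes in red and the median of tested genes in each eighth of GC content in grey. HMGCS1 and IDI1 lie with the low GC genes below 0 in PANC-1 siALDOA 1 and above 0 in 90 siALDOA 1. LSS and DHCR7 lie near the flat right end of the grey line in the PANC-1 panels. They lie furthest above it in 90 siALDOA 2, by 0.41 for LSS and 0.24 for DHCR7.

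IDI1, singled out after its values were seen, lay below the median of its GC eighth in both PANC-1 siALDOA libraries and above it in both of 90. Its change minus the median of its eighth was -1.05 and -0.29 in PANC-1 siALDOA 1 and 2, and 1.01 and 0.78 in 90 siALDOA 1 and 2. After a loess correction of log2 values on GC content, its changes were -0.88 and -0.32 in PANC-1, and 0.83 and 0.77 in 90, so it was below NC in both siALDOA libraries of PANC-1 and above NC in both of 90. As deposited it was above NC in PANC-1 siALDOA 2, by 0.18. The limma difference of siALDOA from NC in PANC-1 after the correction was -0.60 (SE 0.276, unadjusted p = 0.0989), and IDI1 was not called. How widely the genes of its eighth spread around their median was not read. The difference between the lines in the change of IDI1 was not tested, since the 90 changes were known when the gene was chosen. INSIG1 after the correction was at -0.05 and 0.04 in PANC-1, and at 0.28 and 0.53 in 90. HMGCS1 was at -0.01 and 0.21 in PANC-1, and at 0.59 and 0.06 in 90, so most of its spread over the libraries went with the correction. LSS, DHCR7 and SREBF2 were above NC in both 90 siALDOA libraries after it, by 0.02 to 0.43, while FDFT1 was at -0.14 and 0.49 and SQLE at 0.03 and -0.07.

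The second comparison set the lines against each other, with siALDOA as a further term in the limma fit, and 2 of the 8 genes passed the test, both lower in PANC-1. FDFT1 averaged 49.5 ± 4.98 FPKM in PANC-1 and 190.0 ± 30.1 FPKM in 90 (SD, n = 3 each), a PANC-1 level of 0.261 times that of 90. Its log2 difference was -1.91 (SE 0.168, 95% interval -2.34 to -1.48, limma adjusted p = 0.00111). SREBF2 averaged 25.5 ± 4.46 FPKM in PANC-1 and 75.3 ± 10.9 FPKM in 90 (SD, n = 3 each), a PANC-1 level of 0.339 times that of 90. Its log2 difference was -1.53 (SE 0.187, -2.01 to -1.05, limma adjusted p = 0.00308). Over all tested genes 4879 (38.7%) were called, 18.4% as lower in PANC-1, and in 25.1% all 3 PANC-1 libraries were below all 3 of 90. The members called, 2 of 8, were thus a smaller share than that of all genes in either direction, and near it for genes lower in PANC-1.

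Both calls held in every alternative run for them. The FDFT1 difference ran from -2.06 to -1.77 with adjusted p-values of 2.62e-05 to 0.0151, and the SREBF2 difference from -1.67 to -1.42 with adjusted p-values of 0.000138 to 0.0352. The libraries that stood apart in the GC trend were left out 1 at a time. FDFT1 was at -1.96 without PANC-1 siALDOA 1 and -2.01 without 90 siALDOA 1, and SREBF2 at -1.66 without the one or the other. Without PANC-1 siALDOA 2 the differences were smaller, at -1.82 for FDFT1 and -1.42 for SREBF2. The median of all tested genes was 0.13 higher in PANC-1 as deposited and 0.02 higher after median ratio scaling, small beside both differences. An annotated gene on the opposite strand shares exon bases with FDFT1, with SREBF2 (SREBF2-AS1), with HMGCS1 and with IDI1 (IDI2-AS1), and 2 do with LSS. The sources do not say whether counting used strand, so reads of those partners may be among the counts of these 5 genes.

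The other 6 genes did not pass. SQLE averaged 33.3 ± 5.58 FPKM in PANC-1 and 43.1 ± 7.89 FPKM in 90 (SD, n = 3 each), with a log2 difference of -0.36 (SE 0.210, 95% interval -0.90 to 0.18, limma adjusted p = 0.248). It did pass after the GC correction, at -0.53 (adjusted p = 0.00787). IDI1 differed by -0.64 (-2.40 to 1.12) and HMGCS1 by -0.33 (-1.98 to 1.32), with wide intervals. Leaving out 1 library gave -1.28 (without the one or the other NC library) to 0.05 (without PANC-1 siALDOA 1) for IDI1 and -0.74 (without 90 siALDOA 2) to 0.25 (without 90 siALDOA 1) for HMGCS1, so the direction of both rested on single siALDOA libraries. The GC correction gave -0.85 for IDI1 (adjusted p = 0.0932) and -0.56 for HMGCS1 (adjusted p = 0.0515). INSIG1 differed by -0.15 (-0.62 to 0.31), LSS by 0.16 (-0.36 to 0.68) and DHCR7 by 0.09 (-0.40 to 0.59), the last turning to -0.05 under median ratio scaling. For these last 3 genes the intervals leave out differences as large as those of FDFT1 and SREBF2. The adjusted p-values of the 5 genes were 0.535 to 0.765 in limma.

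Over the 6 libraries FDFT1 and SREBF2 had a Pearson correlation of 0.99, LSS and DHCR7 of 0.96, and HMGCS1 had 0.91 with IDI1 and 0.90 with INSIG1. SQLE and LSS, steps next to each other in the pathway, had -0.89. These correlations of log2(FPKM + 1) describe 6 libraries that share line, depth and the GC trend. Part of the order of levels held across the libraries of a line. In all PANC-1 libraries DHCR7 was the highest of the 8 genes, with FDFT1 next. In all 90 libraries FDFT1 was the highest, followed by DHCR7 and then SREBF2. HMGCS1 was the lowest in all 6. In PANC-1, SQLE, LSS, SREBF2, INSIG1 and IDI1 averaged 33.3, 30.6, 25.5, 23.2 and 21.3 FPKM, neighbours that did not differ beyond their spread over libraries (SD 3.53 to 11.6, n = 3).

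The other enzymes of sterol synthesis were read as a list of 13 genes, all of them tested. In PANC-1 against 90, 2 were called higher, 2 lower and 9 did not pass (38.7% of all tested genes were called), with a median log2 difference of 0.04 against 0.13 over all tested genes. FDPS, the farnesyl diphosphate synthase that feeds FDFT1, had 132.8 and 107.0 FPKM in PANC-1 siALDOA 1 and 2 and 128.8 FPKM in PANC-1 NC, and 254.6, 333.3 and 256.4 FPKM in siALDOA 1, siALDOA 2 and NC of the 90 line. Its log2 difference between the lines was -1.18 (SE 0.171, limma adjusted p = 0.00519). TM7SF2, a sterol reductase, differed by -1.34 (SE 0.193, adjusted p = 0.00526). ACAT2, a thiolase that makes acetoacetyl-CoA, was higher by 0.48 (adjusted p = 0.0419) and PMVK, phosphomevalonate kinase, by 0.76 (adjusted p = 0.0433). The farnesyl and squalene synthases, next to each other in the pathway, were thus both lower in PANC-1. None of the 13 was called for siALDOA in PANC-1. Their median change from NC was 0.00 and -0.19 in PANC-1 siALDOA 1 and 2, and -0.05 and 0.25 in 90 siALDOA 1 and 2, and 11 of 13 were above NC in 90 siALDOA 2, as were 50.3% of all tested genes. Of the 13 enzymes 8 followed the pattern of FDFT1, beside 24.4% of all tested genes. MSMO1 and SC5D followed the pattern of HMGCS1, beside 28.4%. Transcript GC content ran from 50.2% (ACAT2) to 64.2% (TM7SF2) in those 8 enzymes, and was 38.1% in MSMO1 and 38.6% in SC5D. The part of GC content in these counts was not tested. The share of all genes in the pattern of FDFT1 moved with the scaling, to 14.8% on the TPM scale and 33.6% after quantile normalization. The enzymes were counted on the deposited values alone, so their count cannot be set beside those 2 shares.

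Among 10 genes of sterol sensing and SREBP processing, 2 were called, both lower in PANC-1, near the 18.4% of all tested genes called lower. SREBF1, which encodes the SREBP more tied to fatty acid synthesis, differed by -1.13 (limma adjusted p = 0.00653) and MBTPS1, the protease that makes the first cut of SREBPs, by -0.48 (adjusted p = 0.0369). Of 12 genes of sterol uptake, transport and storage 10 were tested and 3 called, beside 38.7% of all tested genes. SCARB1, a receptor for HDL, was higher in PANC-1 by 1.17 (adjusted p = 0.00825). NPC2, which hands cholesterol on inside the lysosome, differed by -1.84 (adjusted p = 0.00147), and STARD3, a sterol transfer protein of late endosomes, differed by -1.08 (adjusted p = 0.0147).

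In the isoprenoid branches, which draw on the same mevalonate, 2 of 8 genes were called, both higher in PANC-1, near the 20.4% of all tested genes called higher: PDSS2 by 0.94 (limma adjusted p = 0.0211) and COQ2 by 0.60 (adjusted p = 0.0434), both of ubiquinone synthesis. Of 10 genes of fatty acid synthesis, 3 were called lower and 1 higher, likewise beside 38.7% of all tested genes called. ACSS2, which makes acetyl-CoA from acetate, differed by -2.45 (SE 0.206, limma adjusted p = 0.000984), ELOVL6, an elongase, by -2.42 (adjusted p = 0.0236) and FADS1, a desaturase, by -1.05 (adjusted p = 0.00384), while SCD, the stearoyl-CoA desaturase, was 0.67 higher (adjusted p = 0.00639). ELOVL6 had 0.243 to 1.275 FPKM in PANC-1 and 4.34 to 18.0 FPKM in 90, the last in siALDOA 1. The size of its difference thus rests on values close to the 1 FPKM added before the log. No gene of these lists was called for siALDOA in PANC-1. These lists, like the 8 genes, were written with earlier results of the data known.

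The 6 genes whose levels ran most like the mean of the 8 genes over the 6 libraries, among 8027 genes averaging 5 FPKM or more, were PPAP2A (Pearson r = 0.971), IFIT1 (0.959), SLCO1B3 (0.948), ALCAM (0.938), C3orf52 (0.930) and SAMD9 (0.929). The mean of the 8 genes, in SD units of each gene, was -0.57 and -0.16 in PANC-1 siALDOA 1 and 2 and -0.29 in PANC-1 NC, and 0.60 and 0.53 in 90 siALDOA 1 and 2 and -0.10 in 90 NC. ALCAM, an adhesion molecule, had 1.18 and 9.44 FPKM in PANC-1 siALDOA 1 and 2 against 5.34 FPKM in PANC-1 NC, and 90.7 and 21.5 FPKM in 90 siALDOA 1 and 2 against 10.1 FPKM in 90 NC. The 5 of these genes with a known GC content were at 35.0% to 42.9%, near HMGCS1 and IDI1. Correlations among the 8 genes ran from -0.89 (SQLE with LSS) to 0.99 (FDFT1 with SREBF2), so their mean is not a pattern they share. The highest of 8027 correlations over 6 libraries can be high through selection alone, and none was tested.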

How the data were processed

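The libraries were poly(A)-selected, per the labels' protocols, and sequenced on an Illumina HiSeq. The authors deposited FPKM values per gene and library; HISAT2, featureCounts and the build hg38 are named in the submitters' processing notes, while versions, settings, strand use and gene lengths were not found in the sources. Fragment depth was recovered from whole multiples (up to 8, tolerance 0.03) of the step of low values, which held for 97.2% to 97.7% of values used; fragments behind a gene are approximate, so a count test was left out.

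The scale of analysis was log2(FPKM + 1), which understates changes of low genes, in genes averaging 1 FPKM or more, with limma 3.58.1 (R 4.3.3, intensity trend, Benjamini-Hochberg adjustment, threshold 0.05, two-sided). siALDOA against NC in PANC-1 came from a fit of 4 group means (2 residual degrees of freedom, the lone NC library assumed to vary like the other groups), and PANC-1 against 90 from an additive fit (3 residual degrees of freedom). The fits were tested on simulated data. GC content was taken from each symbol's longest transcript in GENCODE v29 (GRCh38), and coordinates of promoter windows are those of GRCh38.p14.

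The members and lists were chosen with earlier results of these data known. All 8 members are named; of each other list, up to 4 called genes with the largest change are named, or else the 2 with the largest change in the 90 line; the genes of like pattern are the 6 with the highest correlation. MSMO1 and SC5D were named after their values were seen. Some genes of the pathway are not reported here. Alternatives were another pseudocount, other filters and scalings, a GC correction, a robust fit, a replicate block and leaving out each library.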

Additional observations from a re-analysis of the deposited data

How the results depend on the processing

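Without a filter on low values, 49 genes were called for siALDOA against NC in PANC-1, against 0 with it; the cause was not tested. In every other alternative, including leaving out each library but PANC-1 NC (0 to 0), 0 genes were called, and no member was called in any. For PANC-1 against 90, 4879 genes were called, and leaving out 1 library gave 2421 to 4109, with 2421 without PANC-1 NC and 2423 without 90 NC; these fits have fewer samples. Other settings gave 3441 to 5942 genes. FDFT1 and SREBF2 were called in each of these but the robust fit, in which members were not read, and without any 1 library (2 to 2 members); the GC correction added SQLE (-0.53, adjusted p = 0.00787; 0.00554 to 0.480 over all alternatives). The median log2 change of the 8 genes in PANC-1 was -0.01 (-0.08 to 0.04 when a siALDOA library was left out; 0.02 after the GC correction and 0.07 on the TPM scale). In 90 it was 0.17 (0.08 to 0.29; 0.24 after the GC correction). Directions of uncalled members turned with single settings. For siALDOA in PANC-1, HMGCS1 (-0.05) was at 0.001 after quantile normalization, 0.015 on the TPM scale and 0.097 after the GC correction, and INSIG1 (0.05) at -0.005 after the GC correction. Leaving out 1 library spanned -0.829 to 0.730 for HMGCS1, -0.354 to 0.116 for SQLE, -1.577 to 0.175 for IDI1, -0.155 to 0.255 for INSIG1, -0.119 to 0.208 for LSS, -0.172 to 0.222 for DHCR7 and -0.043 to 0.381 for SREBF2, the ends being the values without siALDOA 1 and without siALDOA 2 of PANC-1. For PANC-1 against 90, DHCR7 (0.09) was at -0.053 under median ratio scaling and -0.025 after quantile normalization, and leaving out 1 library spanned -0.051 to 0.243 for DHCR7, -0.736 to 0.245 for HMGCS1 and -1.278 to 0.046 for IDI1; the cause was not tested. The sources do not say whether the label numbers pair the libraries across lines. siALDOA 1 of the lines deviated in opposite directions (r = -0.86 over 12591 genes). That does not settle the pairing, since these libraries also differ in the GC trend. The replicate block gave 3257 calls for PANC-1 against 90 with 2 members. A crossed block, chosen after seeing the data, gave 7591 calls with 3 members. Leaving out the NC library of a line gives no value for siALDOA in that line. Depth limits HMGCS1 most (about 240 fragments at its lowest).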
